A study of Mus musculus with 24 samples.

Results

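Kidney samples can carry RNA from the fat that surrounds the organ, and the 24 libraries described here were divided by the level of genes of fat cells. Below, fat RNA means RNA of such genes, and the tissue it came from was not tested. The titles name 2 batches of 12 libraries without saying what a batch stands for. Within each batch the libraries were ranked by the mean log2(TPM + 1) of 3 genes of fat cells. These are Adipoq, which encodes the hormone adiponectin, Plin1, which coats the lipid droplet, and Cidec, which makes droplets fuse. The 6 libraries of highest score in each batch form the fat-high group and the other 6 the fat-low group, so that 12 libraries were compared with 12 and all 24 of the series were used. These groups were defined from the measured values and are not groups of the study. The values of the 3 ranking genes therefore describe the groups and test nothing. Genes that adipocytes express in common with those 3 were bound to follow them, and their folds are likewise given as a description. Counts of calls in the lists of adipocyte genes also describe the groups and test nothing. In those lists an adjusted p is printed only for a gene that was not called or whose call was lost in some fit.

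The kidneys came from male mice of the B6 background at 15 weeks of age with XLAS, X-linked Alport syndrome, in which loss of the type IV collagen chain Col4a5 damages the glomerular filter. All 24 mice carried that disease, so there is no healthy kidney in either group. Per the labels, 13 mice were HET and 11 WT at Nbl1, whose secreted product binds bone morphogenetic proteins (BMPs) and blocks them, and each library came from a separately named animal. Whole kidney RNA was measured in bulk, and in such data fewer cells of a type and less RNA per cell cannot be told apart.

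White adipocytes of the perirenal depot store triglyceride in a droplet coated by perilipins, release it by lipolysis under adrenergic control, and secrete hormones such as adiponectin, leptin and resistin. In mice this depot also holds brown and beige adipocytes, which burn fat for heat through the uncoupling protein Ucp1. Adipocyte identity rests on the transcription factors PPARG and C/EBP alpha, which bind many of the genes that make and store lipid. The kidney tubule is itself active in lipid metabolism: it takes up fatty acids and oxidizes them, so that a number of genes of fat metabolism are abundant in kidney without any adipocyte.

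The promoters of 2 of the ranking genes are shown because the groups rest on them, with 250 bases before and 50 after the start site, 5′ to 3′ on the gene's strand, from the RefSeq table for GRCm38.p6. In the first, at chr16:23146286-23146585 on the plus strand, capitals mark CCAAT boxes (CCAAT on either strand). In the second, at chr7:79732727-79733026 on the minus strand, capitals mark matches to TTNNGNAAT, a C/EBP motif searched on both strands.
Adipoq: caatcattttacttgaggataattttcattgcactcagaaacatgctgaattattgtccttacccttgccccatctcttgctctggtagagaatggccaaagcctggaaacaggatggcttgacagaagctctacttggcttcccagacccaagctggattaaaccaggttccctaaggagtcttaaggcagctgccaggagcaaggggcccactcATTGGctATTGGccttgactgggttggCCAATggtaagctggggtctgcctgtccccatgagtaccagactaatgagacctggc
Plin1: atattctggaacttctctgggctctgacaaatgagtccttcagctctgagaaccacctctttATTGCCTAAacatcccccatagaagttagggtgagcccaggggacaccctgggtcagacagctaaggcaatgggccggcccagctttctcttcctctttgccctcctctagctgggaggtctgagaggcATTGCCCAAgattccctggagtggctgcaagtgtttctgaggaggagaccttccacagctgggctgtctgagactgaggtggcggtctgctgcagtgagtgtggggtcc
Among all 32851 promoter windows of that length, 11.5% held TTNNGNAAT and 37.4% held CCAAT. Of the 182 genes called higher in fat-high kidneys (defined below, without the 3 ranking genes), 125 matched the table, with 162 windows. Of these windows, 10.5% held TTNNGNAAT and 34% held CCAAT, shares no greater than among all promoters. These matches describe letters in a window and are not evidence of binding.

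The score varied widely within each batch. In batch 1 it ran from 0.897 to 3.14 in fat-high libraries (median 2.87) and from 0.123 to 0.436 in fat-low ones (median 0.314). In batch 2 it ran from 3.56 to 4.40 (median 4.18) and from 1.1 to 2.83 (median 1.77). The fat-low libraries of batch 2 thus scored above WT replicate 4, the last library inside the fat-high group of batch 1, in every case. TPM of the 2 batches are not on one footing (below), so this order is one of scores and not of amounts of fat RNA. Just inside and just outside the division stood WT replicate 4 at 0.897 and HET replicate 2 at 0.436 in batch 1, and WT replicate 9 at 3.56 and HET replicate 9 at 2.83 in batch 2. Ranking the libraries by 9 other adipocyte genes (Lep, Retn, Lipe, Plin4, Adrb3, Cfd, Trarg1, Adig and Pparg) put all 12 libraries of each batch in the same group.

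**Figure D1:**
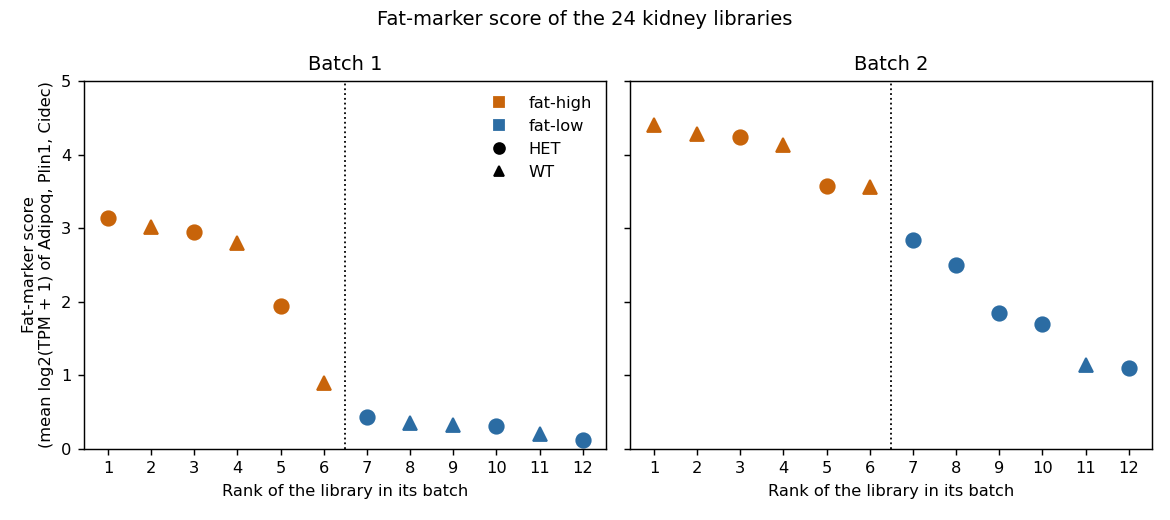
Fat-marker score (mean log2(TPM + 1) of Adipoq, Plin1 and Cidec) of each library against its rank in its batch, with circles for HET, triangles for WT, orange for fat-high and blue for fat-low. The dotted line marks the division, across which the score dropped by 0.461 in batch 1 and by 0.728 in batch 2.

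In deposited TPM, which are per length, the level of Adipoq was 0.98 to 10.4 (median 6.59) in the fat-high and 0.04 to 0.30 (median 0.175) in the fat-low libraries of batch 1. In batch 2 it was 10.03 to 20.4 (median 17.7) and 0.93 to 7.37 (median 2.71). TPM levels of the 2 batches are not on one footing, since Rn7s1 and Rn7s2, copies of the signal recognition particle RNA, each took 20% to 22% of the TPM in batch 1 and at most 0.0231% in batch 2. The fat RNA was a trace of each library. The 12 genes named so far (the 3 ranking genes and the 9 others) made up 0.00210% to 0.00732% of the counts in fat-low libraries and 0.00316% to 0.0194% in fat-high ones. The ranges overlap across batches, and within each batch they do not. By this share WT replicate 4 of batch 1, at 0.00316%, lay above 2 fat-low libraries of batch 2. These were HET replicate 10 (0.00248%) and WT replicate 11 (0.00253%).

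Genotype and score were not separate in both batches. In batch 1 each group held 3 HET and 3 WT libraries (two-sided Fisher's exact test within the batch, p = 1). In batch 2 the fat-high group held 2 HET and 4 WT libraries and the fat-low group 5 HET and 1 WT (two-sided Fisher's exact test, p = 0.242). Genotype was therefore kept as a covariate beside batch. The labels also number the animals, and in batch 1 the 5 highest scores belonged to the 3 highest-numbered animals of the number suffix 22 and to both animals of the suffix 23. In batch 1 fat RNA and whatever those numbers stand for cannot be told apart. For 3 libraries, HET replicate 6 and WT replicates 1 and 2, the levels of Nbl1 and of its neighbour Htr6 went against the genotype label: Nbl1, per library total, was 10.04 CPM in the first and 5.53 and 3.76 CPM in the others, against 3.46 to 7.41 CPM in the other HET and 6.82 to 15.9 CPM in the other WT libraries, and Htr6 had 0 counts in the first and 26 and 14 in the others, against 8 to 49 and 0 to 2. Results that change without these 3 libraries are given with that value. HET replicate 8 bears one animal number in its title and another in its library name, and its values were taken by the latter.

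Libraries of batch 1 held 29551500 to 33020000 expected counts and those of batch 2 held 36380500 to 50746800, and depth did not separate the groups: the medians were 31389100 in fat-high and 31171700 in fat-low libraries of batch 1, and 40614900 and 41887300 in batch 2. Of 18339 genes tested with edgeR's quasi-likelihood test, 306 (1.67%) passed an adjusted p of 0.05, with 185 higher (1.01%) and 121 lower (0.66%) in fat-high kidneys. The 2 directions differed in size. Without the ranking genes, the 182 higher genes had a median log2 fold change of 0.63, ranging from 0.13 to 3.65, and 66 of them were changed over 2-fold. The 121 lower genes had a median of -0.18, that is, 88.5% of the fat-low level, with -0.94 the most and 0 over 2-fold.

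**Figure D2:**
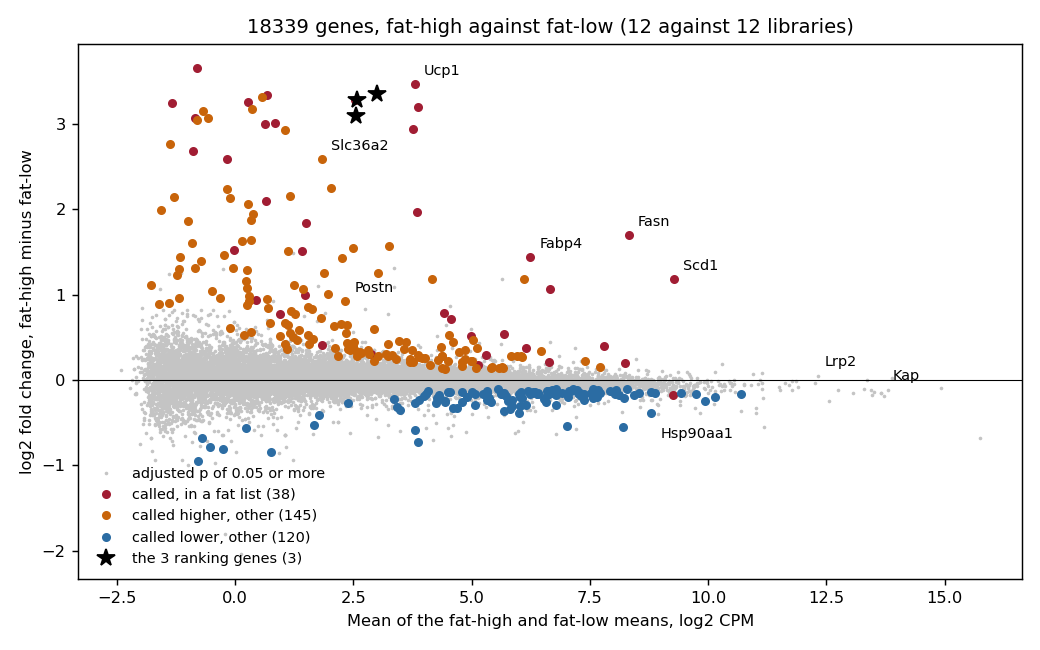
Log2 fold change of fat-high against fat-low kidneys (12 against 12 libraries) on the vertical axis against mean expression in log2 CPM for the 18339 genes tested. Genes called higher reach 3.65, and 90 of the 182 without the ranking genes averaged under 5 CPM. Those called lower lie between -0.94 and -0.10. Of the abundant kidney genes Lrp2 and Kap, neither of them called, the first is at -0.03 and the second at -0.19.

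Of the 182 higher genes, 90 averaged under 5 CPM, counts scaled to the size of the library by TMM factors. Summed over all 182, the level was 4991 CPM in fat-high and 3297 CPM in fat-low kidneys, and the lipid synthesis genes Fasn and Scd1 alone made up 46.3% of the difference of 1694 CPM. The fat-high libraries lay above the fat-low ones with no overlap in both batches for 18 of the 182 genes; over all genes tested, 0.115% did so, the 3 ranking genes included. Among them were Ucp1, Cox8b, Cidea, Otop1, Kcnk3, Adrb3, Cfd, Thrsp and Slc36a2, of which Ucp1, Cox8b and Thrsp were chosen after their values were seen. Of the 121 lower genes 1 did so in the other direction, Lpgat1, an acyltransferase (0.00545% of all genes).

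Over 6 lists of adipocyte genes (90 tested members without the ranking genes) 31 members were called higher and 1 lower, with a median log2 fold change of 0.15 against -0.01 over all genes. Beside the counts of this and every list below, 1.01% of all genes tested were called higher and 0.66% lower. These lists were chosen with earlier results of these data known. Coats of the lipid droplet come first: 4 of 13 members were called higher. Plin4, a perilipin of the droplet surface, was at 3.40 to 5.81 CPM (median 4.55) in fat-low and 5.18 to 28.1 CPM (median 22.4) in fat-high libraries of batch 1, and at 4.59 to 14.3 CPM (median 6.41) and 17.4 to 33.4 CPM (median 27.1) in batch 2. The groups overlapped in batch 1 and not in batch 2, and the log2 fold change was 1.96 ± 0.25 (SE, as for every fold change below). Cidea, a droplet protein of brown fat, differed by 3.28 ± 0.48. Cavin1, which builds caveolae in many cell types, differed by 0.29 ± 0.05. Plin2, the perilipin of most other cells and the most abundant in the list, had a log2 fold change of 0.12 ± 0.03 and was not called. It was called by DESeq2, on both TPM scales, as a slope on the score and in 7 of the 24 fits that left out 1 library.

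Lipolysis is started by the adrenergic receptor Adrb3 and carried out by the lipases Pnpla2 and Lipe. In this list 5 of 14 members were called higher and 1 lower. Adrb3 was at 0 to 0.132 CPM (median 0.0756) in fat-low and 0.344 to 5.24 CPM (median 2.45) in fat-high libraries of batch 1, and at 0.168 to 1.34 CPM (median 0.609) and 1.95 to 4.46 CPM (median 3.29) in batch 2, with no overlap in either. Its log2 fold change was 3.34 ± 0.46. The lipases, which many tissues share, differed less: Lipe by 0.78 ± 0.11 and Pnpla2 by 0.38 ± 0.06. Gk, glycerol kinase, which is abundant in the tubule, was the 1 lower member at -0.17 ± 0.04. Its call was lost without the 3 libraries named above (adjusted p = 0.113) and when 12 of the 24 libraries were left out one at a time, with the largest adjusted p, 0.0986, without HET replicate 8.

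Synthesis of fatty acids and triglyceride had the most called members, 10 of 22 higher and 0 lower. Fasn, which makes palmitate, was at 108 to 139.5 CPM (median 116) in fat-low and 136 to 610.1 CPM (median 547) in fat-high libraries of batch 1. In batch 2 it was at 131 to 309 CPM (median 193) and 350.2 to 705 CPM (median 509). The only fat-high library within the fat-low range was WT replicate 4, and the fold was 3.24 (log2 1.70 ± 0.21). Scd1, the desaturase that makes oleate, was at 252 to 378 CPM (median 329) and 354 to 1165 CPM (median 905) in batch 1, and at 387 to 621 CPM (median 439) and 739 to 1026 CPM (median 878) in batch 2. Its fold was 2.28 (log2 1.19 ± 0.16), and again the groups overlapped in batch 1 only. Agpat2, which adds the second acyl chain on the way to triglyceride, differed by a log2 fold change of 0.71 ± 0.08. Thrsp, a lipogenic regulator chosen after its values were seen, differed by 2.94 ± 0.45. Pck1, abundant in the proximal tubule where it serves gluconeogenesis, was the most abundant member and was not called (1532 ± 265 CPM against 1687 ± 339.9 CPM, SD, n = 12 each).

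In the list of lipid uptake and glucose entry 3 of 14 members were called higher. Fabp4, the fatty acid carrier of adipocytes and also of capillary endothelium, was at 20.3 to 31.0 CPM (median 25) in fat-low and 29.5 to 118 CPM (median 100) in fat-high libraries of batch 1, and at 40.8 to 109 CPM (median 62.3) and 98.6 to 151 CPM (median 134) in batch 2. The groups overlapped in both batches, and the log2 fold change was 1.44 ± 0.22. Trarg1, a regulator of glucose transporter traffic in fat, differed by 1.83 ± 0.24. Slc27a1, a fatty acid transporter, differed by 0.18 ± 0.05, a call lost in 14 of the 24 fits that left out 1 library (largest adjusted p 0.121, without HET replicate 8). Lpl, the lipase that frees fatty acids from lipoproteins and a common marker of fat, was abundant in these kidneys and not called, at 748 ± 134 CPM in fat-high and 949 ± 208 CPM in fat-low libraries (SD, n = 12 each; log2 -0.32 ± 0.12, adjusted p = 0.197).

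Of the secreted products, 6 of 12 tested members were called higher, Adipoq among them. Cfd, adipsin, a complement factor made by fat, was at 0.660 to 1.06 CPM (median 0.901) in fat-low and 2.61 to 32.9 CPM (median 22.4) in fat-high libraries of batch 1, and at 1.83 to 15.7 CPM (median 7.45) and 16.5 to 47.4 CPM (median 30.7) in batch 2, with no overlap in either. Rbp4, which carries retinol, differed by 1.52 ± 0.22. Leptin and resistin were chosen after their values were seen. Lep had 0 to 2 counts in the fat-low libraries of batch 1 and 1 to 50 in the fat-high ones. In batch 2 it had 0 to 32 and 17 to 84 counts, so the groups overlapped in both batches, and the fitted log2 fold change was 3.65 ± 0.68. Retn was at 0.0311 to 0.220 CPM (median 0.104) and 0.430 to 6.20 CPM (median 3.36) in batch 1, and at 0.134 to 1.40 CPM (median 0.657) and 1.29 to 2.67 CPM (median 2.16) in batch 2. Its groups were apart in batch 1 and overlapped in batch 2.

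Regulators of adipogenesis had 4 of 16 members called higher. Pparg, the main adipogenic factor, was at 3.64 ± 0.996 CPM in fat-high and 1.95 ± 0.906 CPM in fat-low kidneys (SD, n = 12 each), a log2 fold change of 0.99 ± 0.15. Ebf2, a factor of brown and beige precursors, differed by 3.07 ± 0.44 and Adig, adipogenin, by 2.68 ± 0.41.

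The brown and beige list had 7 of 17 tested members called higher. Ucp1, the uncoupling protein, chosen after its values were seen, was at 0 to 0.725 CPM (median 0.278) in fat-low and 1.40 to 30.6 CPM (median 19.1) in fat-high libraries of batch 1, and at 1.90 to 18.1 CPM (median 4.40) and 23.4 to 43.7 CPM (median 30.9) in batch 2. The groups did not overlap in either batch, and the log2 fold change was 3.47 ± 0.55. Kcnk3, a potassium channel of brown fat, differed by 1.51 ± 0.19, Otop1, a proton channel, by 3.26 ± 0.47 and Ucp3 by 2.59 ± 0.33. Cox8b and Elovl3, both chosen after their values were seen, are a cytochrome oxidase subunit and a fatty acid elongase of brown fat, and differed by 3.01 ± 0.46 and 3.24 ± 0.68. Slc27a2, a fatty acid transporter of the proximal tubule and the most abundant member, was not called (-0.11 ± 0.04).

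**Figure D3:**
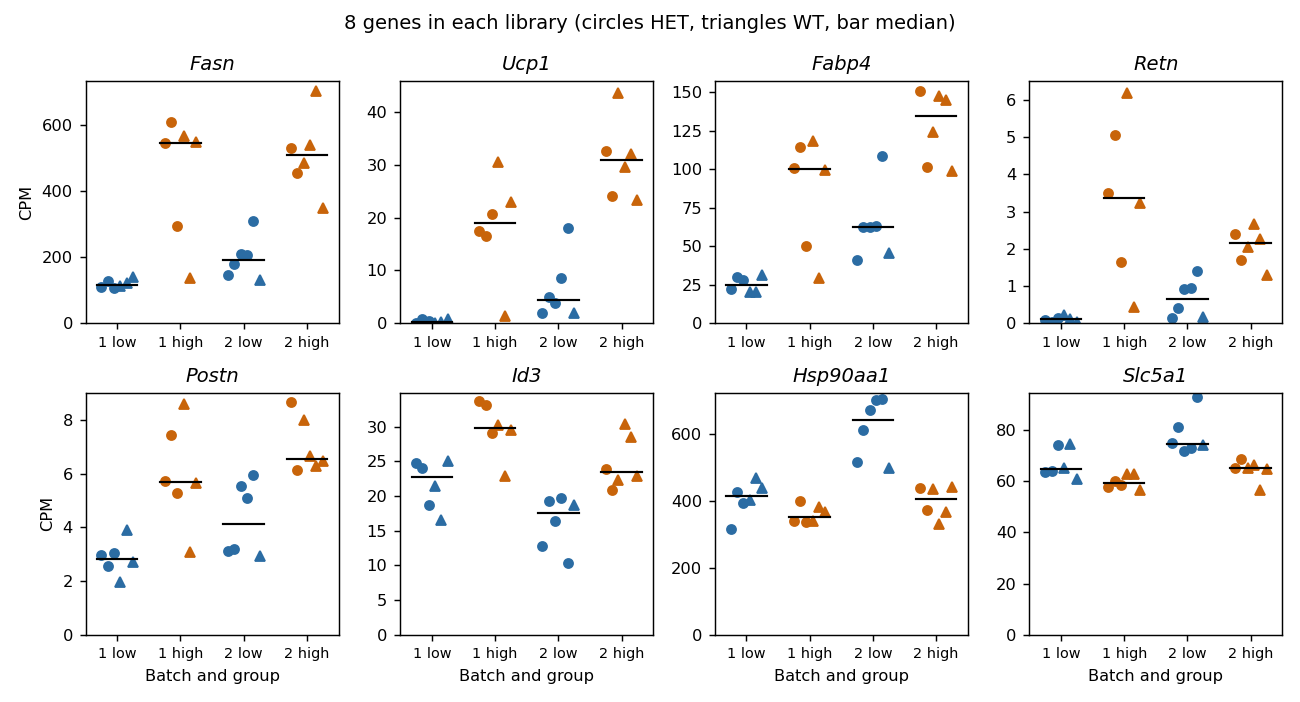
CPM of 8 genes in each library, by batch and group (low, fat-low in blue; high, fat-high in orange), with circles for HET, triangles for WT and bars at the median. Ucp1 is apart in both batches, Fasn falls to 136 CPM in 1 fat-high library of batch 1, and Hsp90aa1 and Slc5a1 are lower in fat-high libraries with overlap in batch 1.

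The makeup of the fat RNA could be set side by side in the 2 batches. The difference in mean TPM between the groups, a quantity per length, was divided by that of Adipoq. Per 1 TPM of Adipoq, the difference was 10.9 TPM for Fabp4 in batch 1 and 11.5 in batch 2. It was 13.9 and 11.5 for Scd1, and 5.0 and 4.57 for Fasn. It was 3.44 and 4.13 for Cfd, 2.24 and 2.35 for Cox8b, and 1.58 and 1.97 for Ucp1. Other genes, chosen after their values were seen, differed more between the batches: 0.618 and 0.254 for Retn, and 0.729 and 1.84 for Dcn. For Adig, taken by the rule, it was 0.328 and 0.180. These values have no error of their own, since each rests on 1 difference of means per batch. Mean Adipoq itself was 5.86 TPM in fat-high and 0.172 TPM in fat-low libraries of batch 1, and 16.1 and 3.28 TPM in batch 2.

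The ratio of Ucp1 to Adipoq, both in TPM, was taken within single libraries, so its spread cannot be set against those differences of means. In fat-high libraries it was 0.724 to 3.91 in batch 1 (median 1.41) and 1.5 to 2.87 in batch 2 (median 1.92). In the fat-low libraries of batch 2 it was 1.03 to 2.13 (median 1.66). Among those of batch 1 only HET replicate 2 had at least 10 counts of Adipoq, and its ratio was 0.967. The highest ratio, 3.91, belonged to HET replicate 6, which had 671 counts of Ucp1 and 129 of Adipoq. The ratio of Retn to Adipoq was 0.490 to 0.990 in the fat-high libraries of batch 1 and 0.244 to 0.313 in those of batch 2, with no overlap between the batches; in the fat-low libraries of batch 2 it was 0.215 to 0.518. Both ratios were chosen after values were seen.

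Fat tissue also holds stromal cells and is covered by mesothelium. Of the adipose stromal list 4 of 22 members were called higher. Gsn, gelsolin, which severs actin, was at 97.9 ± 21.2 CPM in fat-high and 78.9 ± 17.9 CPM in fat-low kidneys, with overlap in both batches (log2 0.34 ± 0.05, adjusted p = 5.09e-05). Clec3b, tetranectin, rose by 1.46 ± 0.22 (adjusted p = 0.000252) and Pi16, a marker of fibroblast progenitors, by 0.40 ± 0.09 (adjusted p = 0.0108). The fourth was Dcn, the collagen-binding proteoglycan decorin, at 0.28 ± 0.06, chosen after its values were seen because it completes the count. Stromal cells come with the tissue on which the groups were chosen, so these calls are no independent evidence. The summed level of the list was 10323 to 13969 CPM in fat-high and 10371 to 12857 CPM in fat-low libraries, and these ranges overlapped. A sum follows its most abundant members, and Gsn, at the levels above, is a small part of it. The mean log2 level of the members, which weighs each alike, had higher medians in fat-high libraries. These were 4.79 against 4.65 in batch 1 and 5.06 against 4.93 in batch 2, with overlapping ranges in both. Of the mesothelium list, 7 of 12 members passed the filter on low counts, 1 was called higher and 1 lower. Igfbp6, which binds insulin-like growth factor, was at 1.62 ± 0.711 CPM against 0.769 ± 0.408 CPM (log2 1.08 ± 0.26, adjusted p = 0.0287). Gpm6a, a membrane protein, was at -0.22 ± 0.05 (adjusted p = 0.0278). Each of these 2 calls was lost in 5 of the 24 fits that left out 1 library, with adjusted p up to 0.0642 for Igfbp6 and 0.0745 for Gpm6a, both without WT replicate 11. The other libraries concerned were HET replicates 4, 5 and 7 and WT replicate 5 for Igfbp6, and HET replicates 5 to 8 for Gpm6a, whose adjusted p was also 0.0869 without the 3 libraries named above. The summed mesothelial markers were at 97.0 to 127 CPM in fat-high and 111 to 130 CPM in fat-low libraries.

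Other tissues that a dissected kidney can carry were searched in the same way. Of the adrenal list 3 of 14 members were tested and 0 were called, and of the skeletal muscle list 2 of 10 and 0. Nerve and Schwann cells (10 tested), urothelium (12), lymph node B and plasma cells (13), T and NK cells (12), neutrophils (5) and erythrocytes (8) had 0 called members each. Their medians were 0.07, 0.33, 0.59, 0.06, 0.17 and -0.54. The summed B and plasma cell markers had a median of 37.6 CPM in fat-high and 19.2 CPM in fat-low libraries, with 12 of 13 tested members above 0. Igkc, chosen after its values were seen, reached 46.5 to 52.2 CPM in HET replicate 13, WT replicate 1 and WT replicate 10, and was at 19.9 CPM or less in every other library. Hemoglobin Hbb-bs, which comes with blood, was at 115 ± 34.8 CPM in fat-high and 179 ± 94.6 CPM in fat-low kidneys and was not called (adjusted p = 0.173).

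Macrophages had 1 of 17 members called. Cd163, a scavenger receptor of resident macrophages, was at 0.157 to 0.333 CPM (median 0.231) in fat-low and 0.286 to 1.65 CPM (median 0.735) in fat-high libraries of batch 1, and at 0.240 to 0.649 CPM (median 0.341) and 0.534 to 1.07 CPM (median 0.744) in batch 2. The groups overlapped in both batches, and it rose by 1.32 ± 0.26 (adjusted p = 0.00384). Retnla and F13a1, which macrophages also make and which were chosen after their values were seen, rose by 2.14 ± 0.42 and 0.95 ± 0.22 (adjusted p = 0.00511 and 0.0218). Cd163, Retnla and F13a1 followed the ranking score across the libraries (Pearson correlations 0.82, 0.83 and 0.72, batch means removed), so their calls are no independent evidence. The summed level of the macrophage list was 375 to 812 CPM in fat-high and 366 to 720 CPM in fat-low libraries. Endothelial markers had 1 of 21 called, Fabp4, which is also in a fat list, and mesangial, smooth muscle and renin cells 0 of 15.

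**Figure D4:**
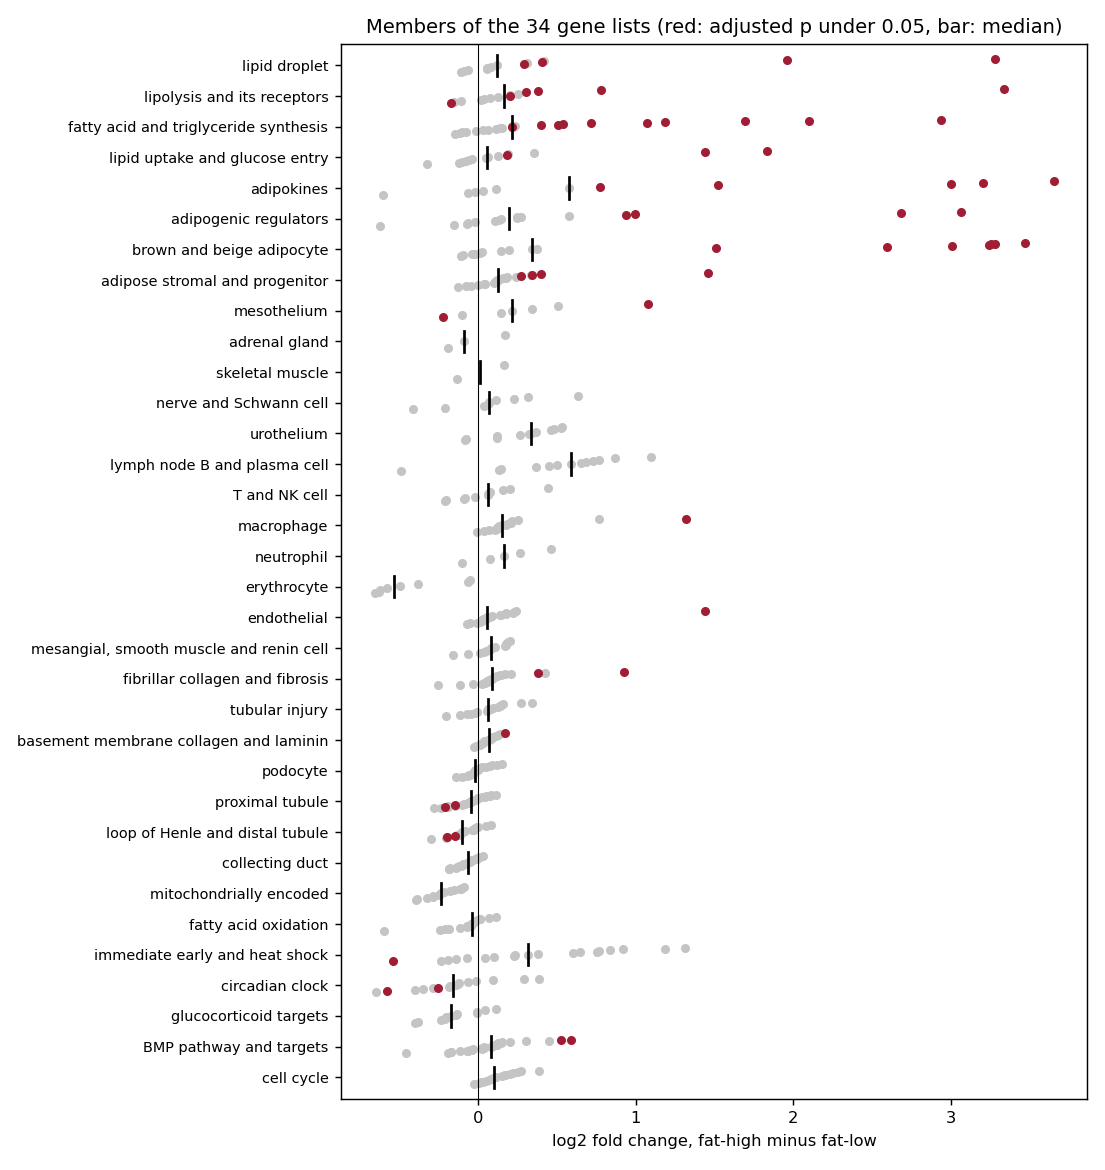
Log2 fold change of fat-high against fat-low kidneys for each tested member of the 34 gene lists, without the 3 ranking genes, with called genes in red and a bar at the list's median. The fat lists spread to 3.65, the podocyte, tubule and collecting duct lists lie between -0.30 and 0.15, and the heat shock and clock lists hold called members below 0.

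The 15 genes of smallest p that were higher, at a mean of at least 1 CPM, include 3 of the lists above: Agpat2, Kcnk3 and Gsn. The others were in no list. Slc36a2, an amino acid transporter, was at 0.363 to 0.968 CPM (median 0.453) in fat-low and 1.60 to 6.31 CPM (median 5.20) in fat-high libraries of batch 1, and at 0.809 to 3.21 CPM (median 1.59) and 5.44 to 8.84 CPM (median 7.83) in batch 2. With no overlap in either batch, its log2 fold change was 2.58 ± 0.26. The neurotrophin receptor Ntrk2 (1.25) and the sortilin relative Sorcs2 (1.06) code for membrane proteins, as do Clstn3 (1.64) and the amine oxidase Aoc3 (1.25). Nat8l, which makes N-acetylaspartate (2.93), Abcd2, a peroxisomal fatty acid transporter (2.15), and Ppp1r3b, which directs a phosphatase to glycogen (1.43), act in metabolism. Bche, butyrylcholinesterase, was at 2.06, Prkar2b, a subunit of the cyclic AMP kinase, at 1.57 and Phlda3, which restrains AKT, at 0.66. These genes follow the ranking score, so their small p-values were bound to the choice of the groups. They are not given, except that of Gsn above, which is likewise no independent evidence.

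The kidney's own genes differed by small amounts. Over 4 lists of podocytes and of 3 stretches of the tubule, 91 genes were tested, with 0 called higher and 4 lower (0.66% of all genes tested were called lower) and a median log2 fold change of -0.04. The shift was small but mostly downward, with 19 of the 91 above 0, against 8535 of 18339 over all genes tested. The median over the 91 was -0.02 in batch 1 and -0.06 in batch 2. By list, the medians in batches 1 and 2 were 0.005 and -0.02 for podocytes and 0.008 and -0.07 for the proximal tubule. They were -0.04 and -0.14 for the loop of Henle and distal tubule, and -0.07 and -0.06 for the collecting duct. For 74 of the 91 nephron genes (81.3%) the 95% interval lay within 1.2-fold in both directions, against 58.1% of all genes tested, and for 91 of 91 within 1.5-fold. Within 1.1-fold there were 27. The width of an interval depends on a gene's counts, and all genes tested were not matched to the nephron genes in expression. The shares of 81.3% and 58.1% therefore cannot be set against each other as a measure of stability. On the log2(TPM + 1) scale, where the median of all genes was 0.09, none of the 4 was called by limma (adjusted p of 0.384 for Slc5a1, 0.224 for Egf, 0.792 for Hnf4a and 0.811 for Kcnj1). Spearman correlations with the score in batches 1 and 2 were -0.73 and -0.77 for Slc5a1 and -0.13 and -0.74 for Egf. They were -0.19 and -0.73 for Hnf4a, and -0.13 and -0.69 for Kcnj1.

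**Figure D5:**
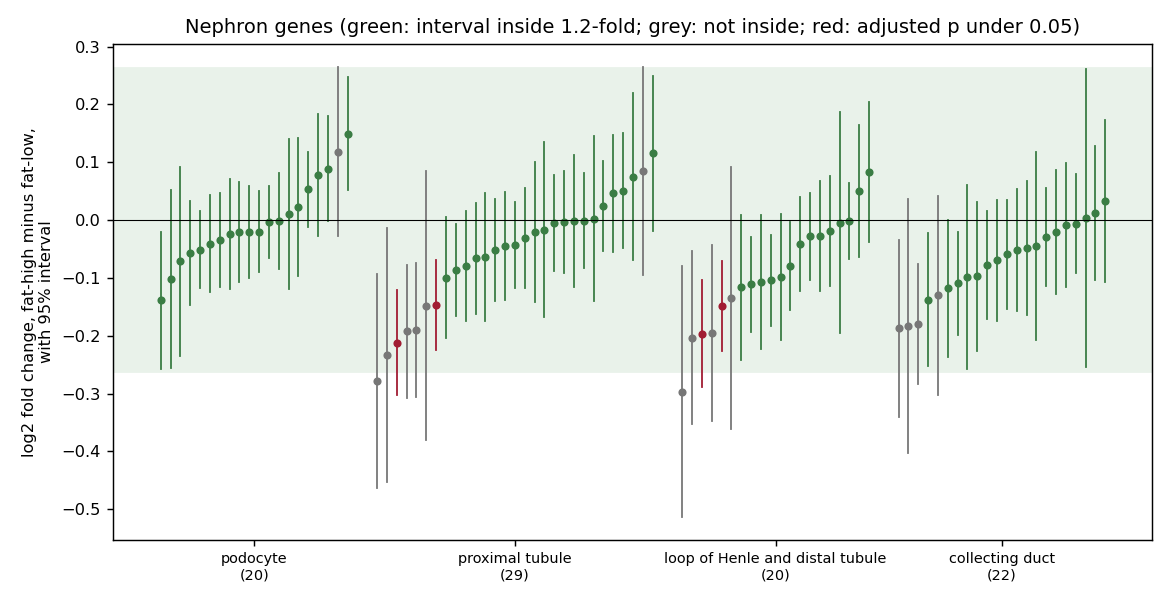
Log2 fold change with its 95% interval for the 91 nephron genes, ordered within each list, on a shaded band of 1.2-fold. Green intervals lie inside the band and grey ones reach outside it; the 4 called genes, in red, are all below 0 and no further than -0.21.

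Podocytes, the cells that Alport syndrome damages first by way of their basement membrane, had 20 of 20 genes not called and 19 of 20 within 1.2-fold. Actn4, an actin bundler, was at 314 ± 39.3 CPM in fat-high and 301 ± 29.8 CPM in fat-low kidneys (interval of the log2 fold change -0.01 to 0.12). Of 16 genes of basement membrane collagens and laminins 15 were within 1.2-fold. Col4a3 had a log2 fold change of 0.04 ± 0.04 and Col4a5 of 0.14 ± 0.05 (adjusted p = 0.149). The 1 called member, Nid2, a nidogen, was at 0.17 ± 0.04 (adjusted p = 0.0446), a call lost in 15 of the 24 fits that left out 1 library and without the 3 libraries named above (adjusted p = 0.108).

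In the proximal tubule list 22 of 29 genes were within 1.2-fold and 2 were called lower. Lrp2, megalin, the receptor for filtered protein, was at 5275 to 6203 CPM (median 5637) in fat-low and 5168 to 6115 CPM (median 5854) in fat-high libraries of batch 1, and at 3988 to 4763 CPM (median 4231) and 3776 to 4337 CPM (median 3935) in batch 2. The groups overlapped in both, and the interval of its log2 fold change was -0.12 to 0.06. Slc5a1, a sodium-glucose transporter, was at 61.1 to 74.5 CPM (median 64.7) and 56.5 to 62.7 CPM (median 59.2) in batch 1, and at 71.7 to 92.8 CPM (median 74.5) and 56.7 to 68.7 CPM (median 65.3) in batch 2, apart in the second only. It was at 86.3% of the fat-low level (-0.21 ± 0.04, adjusted p = 0.00711). Hnf4a, a transcription factor of the proximal tubule, was at 90.3% (-0.15 ± 0.04, adjusted p = 0.0402), a call lost in 16 of the 24 fits that left out 1 library and without the 3 libraries named above (adjusted p = 0.179). Kap, an androgen-dependent protein and the most abundant member, was at 12529 ± 1077 CPM against 14343 ± 1714 CPM and was not called (log2 -0.19, interval -0.31 to -0.08, adjusted p = 0.0789). It was called lower by DESeq2 (adjusted p = 0.0277) and by edgeR without HET replicate 1 (0.0334) or WT replicate 3 (0.0497).

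In the loop of Henle and distal tubule 15 of 20 genes were within 1.2-fold and 2 were called lower. Umod, uromodulin, was at 2426 to 2660.4 CPM (median 2469) in fat-low and 2203 to 2484 CPM (median 2407) in fat-high libraries of batch 1, and at 3217 to 4071 CPM (median 3402) and 2917 to 3441 CPM (median 3134) in batch 2, with an interval of -0.16 to -0.00 for the log2 fold change. Egf, the growth factor made by the distal tubule, was at 87.3% of the fat-low level (adjusted p = 0.0177). Its adjusted p was 0.0501 without HET replicate 8, 0.0512 without WT replicate 2 and 0.0702 without the 3 libraries named above. Kcnj1, the potassium channel ROMK, was at 90.2% (adjusted p = 0.0394), a call lost in 14 of the 24 fits that left out 1 library, with the largest adjusted p, 0.0945, without HET replicate 8. In the collecting duct 18 of 22 were within 1.2-fold and 0 were called; Scnn1a, a subunit of the sodium channel, was at -0.18 ± 0.05 (adjusted p = 0.0698), and was called by DESeq2 (0.0428), without the genotype covariate (0.0331) and without HET replicate 1 (0.0344). Ehhadh, of peroxisomal fatty acid oxidation, was at -0.24 ± 0.07 (adjusted p = 0.0585); of that list 0 of 20 were called. Ehhadh was called by DESeq2 (0.0143), without the genotype covariate (0.0284) and without HET replicates 1 or 2 or WT replicates 5 or 9 (0.0233 to 0.0487).

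The 121 lower genes were changed by small amounts, with 28 of them beyond 1.2-fold. All 121 were below 0 in both batches when these were fitted separately, with a median of -0.13 in batch 1 and -0.24 in batch 2; these are the libraries on which they were called. When 1 library was left out at a time, between 46 and 201 genes were called lower, and 33 of the 121 were called in all 24 fits, against 137 of the 185 higher ones. Without HET replicate 8 there were 46 lower genes, and fewer than 81 without HET replicates 7 (65), 11 (76) or 12 (80), or WT replicates 2 (73), 7 (79), 8 (70), 10 (80) or 11 (80). Without HET replicate 1 there were 201 lower and 279 higher genes. Without the 3 libraries named above, 71 lower and 173 higher genes were called. On the log2(TPM + 1) scale 3 of the 121 were called lower by limma. As a slope on the score, 25 of the 121 lower and 156 of the 185 higher genes were called, or 153 of 182 higher genes without the ranking genes. The higher genes hold adipocyte genes bound to follow the ranking. Their shares in this paragraph therefore cannot be set against those of the lower genes as a measure of stability.

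Among the 15 genes of smallest p that were lower are Slc5a1 (above), Slc51a, an organic solute transporter (-0.25), Slc46a3 (-0.21) and Slc39a8, which carries zinc and manganese (-0.19). Adtrp, a hydrolase of hydroxy fatty acid esters, was at 51.3 to 65.9 CPM (median 57.6) in fat-low and 48.8 to 51.9 CPM (median 50.6) in fat-high libraries of batch 1, and at 60.6 to 79.3 CPM (median 66.9) and 51.1 to 58.5 CPM (median 56.2) in batch 2. The groups overlapped in batch 1 only, and it was at 84.9% of the fat-low level (-0.24 ± 0.04, adjusted p = 0.00139). Lpgat1 was at 179.7 to 199 CPM (median 185) and 158 to 179 CPM (median 177) in batch 1, and at 202 to 217 CPM (median 206) and 154 to 189 CPM (median 178) in batch 2, apart in both, at 88.5% of the fat-low level. The others were Ptgfr, the prostaglandin F receptor (-0.26), Rprd1a (-0.14), Mkks (-0.26), Tmigd1 (-0.20), Nat8f6 (-0.31), Cyp2j11, a cytochrome P450 (-0.19), Fkbp4 (-0.18), Veph1 (-0.20) and the noncoding Gm26850 (-0.53). Over the 15 genes the adjusted p was 0.00139 to 0.0108. As a slope on the score Ptgfr, Rprd1a, Slc5a1, Cyp2j11, Fkbp4 and Slc46a3 were not called, and on log2(TPM + 1) none of the 15 was called by limma.

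The immediate early and heat shock list had 1 of 19 members called lower and 0 higher, with 14 of 19 above 0 and a median of 0.32. Hsph1, a heat shock protein and the 1 called member, was at 85.2 to 125 CPM (median 113) in fat-low and 72.6 to 113 CPM (median 84.6) in fat-high libraries of batch 1. In batch 2 it was at 135 to 259 CPM (median 218) and 98.2 to 135 CPM (median 116), where the groups did not overlap. It fell to 68.8% of the fat-low level (adjusted p = 0.0188, but 0.0506 without HET replicate 8 and 0.0967 without the 3 libraries named above). Fkbp4, a partner of Hsp90, is among the 15 genes just named. Hsp90aa1, chosen after its values were seen, was at 316 to 468 CPM (median 415) and 338 to 401 CPM (median 353) in batch 1, and at 498 to 703 CPM (median 642) and 330.0 to 441 CPM (median 405) in batch 2, apart in the second only. It was at 76.5% (adjusted p = 0.0219), with log2 fold changes of -0.17 in batch 1 and -0.53 in batch 2, a difference between batches that did not pass (unadjusted p = 0.00574, adjusted p = 0.191). Its call was lost without HET replicate 8 (0.0571), without WT replicate 3 (0.0544) and without the 3 libraries named above (0.0746). Hsp90ab1 and its partner Stip1, also chosen after their values were seen, were at 84.2% and 81.4% (adjusted p = 0.0159 and 0.0171); without the 3 libraries the adjusted p of Hsp90ab1 was 0.0722. As a slope on the score none of these 4 genes was called (adjusted p 0.221 to 0.290), nor were Slc5a1, Egf, Hnf4a and Kcnj1 (0.0516 to 0.295).

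The list that holds Hsph1 also holds immediate early genes, and its median was 1.19 in batch 1 and -0.59 in batch 2. Fos, chosen after its values were seen, was at 51.2, 78.2 and 38.3 CPM in HET replicates 4 and 5 and WT replicate 6, all fat-high libraries of batch 1. In every other library it was at 12.9 CPM or less. It was not called (adjusted p = 0.39). Of 16 clock genes 2 were called lower, where 0.66% of all genes tested were. These were Per2, a repressor of the clock, at 66.9% of the fat-low level (-0.58 ± 0.12, adjusted p = 0.0136) and Nr1d2, a nuclear receptor of the clock, at 83.9% (adjusted p = 0.0137). Per2 was at 14.8 to 21.9 CPM (median 17.8) and 8.71 to 16.5 CPM (median 11.1) in batch 1, and at 9.01 to 21.1 CPM (median 16.9) and 8.06 to 13.6 CPM (median 11.1) in batch 2, with overlap in both, and was not called as a slope on the score (adjusted p = 0.0693). Nor was Per2 called with the upper 4 against the lower 4 libraries of each batch (adjusted p = 0.0903). On log2(TPM + 1) limma called neither Per2 (adjusted p = 0.133) nor Nr1d2 (0.316). The hour of collection is not in the sources used here, and its part in these values was not tested. Of the glucocorticoid targets 0 of 13 were called; Tsc22d3 was at -0.38 ± 0.13 (adjusted p = 0.156). The mitochondrially encoded genes had 0 of 15 called, with a median of 0.02 in batch 1 and -0.37 in batch 2.

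Of the lists that speak to the disease, fibrosis had 2 of 25 members called, both higher, where 1.01% of all genes tested were called higher. Postn, periostin, a matrix protein of fibroblasts, was at 1.98 to 3.90 CPM (median 2.83) in fat-low and 3.07 to 8.58 CPM (median 5.69) in fat-high libraries of batch 1, and at 2.93 to 5.96 CPM (median 4.12) and 6.12 to 8.68 CPM (median 6.56) in batch 2. The groups were apart in batch 2 and overlapped in batch 1, and the level rose by 0.93 ± 0.15 (adjusted p = 0.000897). Across the libraries Postn followed the ranking score (Pearson correlation 0.90, batch means removed). Its call is therefore no independent evidence, and whether it comes with the fat RNA was not tested. Fbln2, a fibulin, was at 0.38 ± 0.10 (adjusted p = 0.0386), a call lost in 13 of the 24 fits that left out 1 library (largest adjusted p 0.0736, without WT replicate 5) and without the 3 libraries named above (0.138). The median of the list was 0.09. Of 17 tubular injury genes 0 were called; Cryab, a small heat shock protein, had the smallest p of them at -0.20 ± 0.07 (adjusted p = 0.163). Cell cycle genes had 0 of 18 called.

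Genes of the BMP pathway, on which Nbl1 acts, had 2 of 29 called, both higher, beside the same 1.01%. These are the inhibitors of differentiation Id1 and Id3, immediate targets of BMP signalling. Across the libraries Id1 and Id3 followed the ranking score (Pearson correlations 0.79 and 0.73, batch means removed). Their calls are therefore no independent evidence. Id3 was at 16.6 to 25.1 CPM (median 22.8) in fat-low and 22.9 to 33.8 CPM (median 29.9) in fat-high libraries of batch 1, and at 10.4 to 19.7 CPM (median 17.6) and 20.9 to 30.4 CPM (median 23.4) in batch 2. It rose by 0.52 ± 0.11 (adjusted p = 0.0103), with overlap in batch 1 only. Id1 was at 5.65 to 10.6 CPM (median 6.73) and 5.50 to 15.1 CPM (median 9.96) in batch 1, and at 3.99 to 6.49 CPM (median 4.82) and 6.48 to 10.1 CPM (median 7.89) in batch 2. It rose by 0.59 ± 0.14 (adjusted p = 0.0274), a call lost without HET replicates 4 or 7 or WT replicates 2 or 3, with adjusted p of 0.0562 to 0.0658, and at 0.0621 without the 3 libraries named above. Nbl1 was at 8.15 ± 3.25 CPM in fat-high and 5.32 ± 1.55 CPM in fat-low kidneys (SD, n = 12 each, means over libraries of both genotypes), and was not called with genotype as a covariate (0.45 ± 0.15, adjusted p = 0.157). Beside these values stand those of the fat RNA, and its part in them was not tested.

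The batches were also fitted alone. In batch 1, 16 of 18494 genes were called, all higher (0.0865%), and in batch 2 117 of 17955 (0.652%), with 66 higher (0.368%) and 51 lower (0.284%). These counts rested on single libraries: in batch 1 they ran from 0 to 87 when 1 library was left out, with the highest without WT replicate 4, and in batch 2 from 1 without HET replicate 7 to 569 without HET replicate 13. The 182 higher genes had a median log2 fold change of 0.50 in batch 1, where 166 had a value and all were above 0, and of 0.64 in batch 2. A test of the difference between batches called 1 gene of 18339 (0.00545%), Gclm, a subunit of the enzyme that makes glutathione. Gclm was at 256 to 274 CPM (median 265) in fat-low and 242 to 296 CPM (median 269.7) in fat-high libraries of batch 1, and at 287 to 334 CPM (median 302) and 238 to 260.1 CPM (median 249.9) in batch 2. DESeq2 called 314 genes for the same difference, 20 higher and 294 lower. The difference of the log2 fold changes of Gclm, batch 2 minus batch 1, was -0.34 (edgeR, adjusted p = 0.0463).

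With the group as a covariate, HET against WT had 0 of 18339 genes called by edgeR (0%), with 598 at an unadjusted p under 0.05. Without that covariate there were also 0, with 755. The p-values above measure the spread between animals, since the labels name a separate animal for each library.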

How the data were processed

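RNA of 24 kidneys was extracted with a NucleoMag kit and made into libraries with the KAPA mRNA HyperPrep kit, per the labels' protocols. The submitters' processing notes name fastp, STAR, featureCounts, GRCm38 and mm10 without versions; the sources used here do not give the annotation or whether counting used strand. The table deposited by the authors holds expected counts per gene for 55487 genes (11.8% to 15.4% of genes per library not whole) beside TPM deposited by the authors and FPKM, the latter not used here. Overlapping and antisense genes can therefore not be told apart.

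The counts were rounded, genes under the edgeR filter (minimum count 10) were left out (18339 genes remained, with 99.9% of counts), and TMM factors were applied. A robust quasi-likelihood model with batch, genotype label and fat group was fitted in edgeR 4.0.16 (R 4.3.3), with Benjamini-Hochberg adjustment over all genes and a threshold of 0.05; every adjusted p printed here is from it unless another tool is named. DESeq2 1.42.0 and limma 3.58.1 served as alternatives. Among 61 pairs of libraries of the same genotype and batch, no pair agreed within sampling noise (lowest chi-square per degree of freedom 9.57). Symbols matched GENCODE M21 for 55227 genes.

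The groups, the gene lists and the rule for named genes were chosen with earlier results of these data known. The rule took Adipoq, Plin1, Cidec and Nbl1, the 15 higher and 15 lower genes of smallest p among those averaging 1 CPM or more, of each list up to 3 genes by p and 1 by CPM, the 2 most abundant members within 1.2-fold of each kidney cell list, and genes whose change differed between batches; some genes that the rule takes are not reported here. Alternatives changed the test, normalization, filter, unit, ranking, group size, covariates and libraries.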

Additional observations from a re-analysis of the deposited data

Results flagged for a closer look

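List scores, the mean log2(CPM + 0.5) of a list's members, were compared among the 6 libraries of each batch and fat group. In 7 of 144 such groups 1 library stood apart from the other 5 by Dixon's test, and chance flags about 1 in 20. HET replicate 2, a fat-low library of batch 1, had an adrenal score of 2.18 against 2.34 to 2.42. HET replicate 13, fat-low in batch 2, had a B and plasma cell score of 1.83 against 0.407 to 0.618, and it is one of the 3 libraries with high Igkc. HET replicate 7, fat-high in batch 2, had an erythrocyte score of 5.27 against 4.53 to 4.80. WT replicate 5, fat-low in batch 1, stood high in the immediate early and heat shock score (4.10 against 2.81 to 3.10) and in that of glucocorticoid targets (5.29 against 4.77 to 4.95). WT replicate 7, fat-high in batch 2, had a glucocorticoid target score of 4.53 against 4.74 to 4.77. WT replicate 9, fat-high in batch 2, had 50746800 counts against 38319800 to 42637700.

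The log2 fold change of Gclm differed between the batches by -0.34 (batch 2 minus batch 1; edgeR interaction term, adjusted p = 0.0463), with 0.03 in batch 1 and -0.28 in batch 2.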

How the results depend on the processing

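Of 82 called genes followed through every alternative, 0 changed direction. The 82 include the 3 ranking genes and adipocyte genes bound to follow them. For those genes the direction was set by the choice of the groups, and their part in the counts below tests nothing. All 82 were called by DESeq2, with RLE factors, with TMM factors that left out adipocyte genes and without the genotype covariate. Ranking by other adipocyte genes gave the same groups and so the same fit. Without a filter 78 were called, on either TPM scale 54, with the upper 4 against the lower 4 libraries 58, as a slope 64, without the 3 libraries of doubted genotype 72, and in all 24 fits that left out 1 library 70. Against 306 called genes (185 higher, 121 lower), DESeq2 called 517 (291 and 226) and the upper 4 against lower 4 called 181, with 19 lower. On log2(TPM + 1) limma called 410 higher and 3 lower, and on log2(TPM + 0.1) 409 and 2; there the median of all genes was 0.09 and 0.11, and 99.3% and 99.5% of calls were higher against 60.5%. Lower calls numbered 75 without a filter, 30 as a slope, 211 without the genotype covariate (49.8% of calls higher) and 71 without the 3 libraries (70.9%). Calls were 86.6% higher as a slope, 89.5% with 4 against 4 and 71.9% without a filter. The causes were not tested. Leaving out 1 library gave 199 to 480 calls, 153 to 279 higher and 46 to 201 lower. In batch 1 DESeq2 called 93 genes (82 higher, 11 lower) and edgeR without a filter 37, all 37 higher; leaving out 1 library gave 0 to 87 calls, 0 to 86 higher and 0 to 1 lower. In batch 2 DESeq2 called 893 (359 higher, 534 lower) and edgeR without a filter 293 (124 and 169); leaving out 1 library gave 1 to 569 calls, 1 to 294 higher and 0 to 275 lower. For the difference between batches DESeq2 called 314 genes, 20 higher and 294 lower in batch 2 than in batch 1, against 1 by edgeR. Of the uncalled genes, 3 turned sign on the TPM scales: Slc27a2 to 0.015 and 0.015, Lrp2 to 0.10 and 0.10 and Umod to 0.010 and 0.010 for the pseudocounts 1 and 0.1. Within 1.1-fold there were 27 nephron genes, against 74 within 1.2-fold.

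Groups of 6 libraries a batch, fat RNA confounded with animal numbers in batch 1, and genes of few counts limit these results. No paired analysis was possible because the labels give no replicate numbers; those used here only name samples in accession order.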
